A study of Homo sapiens with 96 samples.

Results

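The experiment asks what changes in MOLM13 cells when an inhibitor of the histone demethylase LSD1 is added to all-trans retinoic acid. MOLM13 is an acute myeloid leukemia (AML) cell line with a KMT2A-MLLT3 fusion. The group called ATRA received 100 nM all-trans retinoic acid, and the group called Combo received the same dose together with 1 µM GSK2879552, an irreversible LSD1 inhibitor. Each was harvested at day 2 and day 4 with 2 libraries per treatment and day, so that 4 Combo libraries were set against 4 ATRA libraries, 8 of the 96 libraries in the series. The remaining libraries used here are MOLM13 cells given 0.1% DMSO (DMSO) or 1 µM GSK2879552 without ATRA (labelled 552A) on the same days, and the ATRA and Combo libraries of MV411 and THP1, AML lines that also carry KMT2A fusions. The whole series covers 6 AML lines by total RNA sequencing with a stranded library kit. The labels do not say whether the replicates are separate cultures, so the p-values rest on a spread between libraries that may be technical only. The line stands for 1 patient's leukemia, and the libraries are bulk, so fewer cells with an RNA and less of it per cell cannot be told apart.

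The 8 libraries held 14307480 to 27268919 counts on genes. The defining markers of the line were present in all 8: CD33 at 155 to 188 CPM (counts scaled to a library of 1000000 counts after TMM normalization), FLT3 at 462 to 566, HOXA9 at 65.3 to 96.1 and MEIS1 at 120 to 198. ANPEP was low, at 0.279 to 1.46 CPM. PAX5 reached at most 0.148 and CD3E at most 0.331 CPM. Counts on all mitochondrially encoded genes made up 1.276% to 2.823% of the ATRA libraries and 0.821% to 1.258% of the Combo libraries, with no overlap. A list of 13 of these genes did overlap when summed, at 5224 to 11338 CPM under ATRA and 7319 to 7994 CPM under Combo. All 13 had a log2 fold change below 0 for Combo against ATRA (median -0.33), and none was called. The dependence of the values on GC content also differed between libraries, from a slope of -0.33 (log2 per 10 percentage points of GC, ATRA day 4 replicate 1) to 0.26 (ATRA day 2 replicate 1), and the replicates of Combo lay apart on each day (0.20 and -0.27 on day 2, 0.10 and -0.11 on day 4). What part of any gene's difference either measure carries was not tested beyond the GC-corrected counts given with the results.

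LSD1, encoded by KDM1A, removes methyl groups from lysine 4 of histone H3 and works with the repressor GFI1 and the CoREST complex to keep myeloid genes silent in blast cells. Retinoic acid acts on a different layer: it binds retinoic acid receptors, which sit on DNA and switch from repression to activation of their targets. In myeloid cells, the genes for HLA class II molecules are switched on together by the coactivator CIITA, which docks on a promoter module that contains an inverted CCAAT motif, the Y box. In the integrated stress response the factor ATF4, often paired with a C/EBP protein, drives genes for amino acid synthesis and uptake when translation initiation is curbed.

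The promoters of 4 genes from the class II and stress response groups described below are shown. All 4 belong to the minority of their group with a match, so they do not represent it. They are given as the 250 bases before the start of transcription, 5′ to 3′ on the gene's strand, from RefSeq (GRCh38.p14). Capitals mark a match to TGATGNAA, the composite of ATF4 and C/EBP, in ASNS and CHAC1 (in CHAC1 as its reverse complement), or to CTGATTGG, the Y box, in HLA-DMA and HLA-DRB1.
ASNS, chr7:97872409-97872658, minus strand: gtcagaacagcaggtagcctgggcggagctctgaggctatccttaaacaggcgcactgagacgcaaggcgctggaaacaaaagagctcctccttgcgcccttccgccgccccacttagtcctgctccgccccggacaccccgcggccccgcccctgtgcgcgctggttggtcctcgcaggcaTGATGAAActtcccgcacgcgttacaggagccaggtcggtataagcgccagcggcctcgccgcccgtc
CHAC1, chr15:40953221-40953470, plus strand: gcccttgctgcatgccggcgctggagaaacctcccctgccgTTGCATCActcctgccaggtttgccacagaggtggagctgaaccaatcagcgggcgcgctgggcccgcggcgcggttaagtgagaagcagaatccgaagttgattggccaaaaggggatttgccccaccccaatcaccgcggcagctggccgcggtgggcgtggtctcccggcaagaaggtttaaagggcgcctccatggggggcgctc
HLA-DMA, chr6:32953098-32953347, minus strand: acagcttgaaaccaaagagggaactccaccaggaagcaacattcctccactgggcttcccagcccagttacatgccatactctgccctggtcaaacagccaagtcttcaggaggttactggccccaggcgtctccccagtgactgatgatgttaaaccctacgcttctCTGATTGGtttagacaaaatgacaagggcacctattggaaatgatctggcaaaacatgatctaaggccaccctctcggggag
HLA-DRB1, chr6:32589849-32590098, minus strand: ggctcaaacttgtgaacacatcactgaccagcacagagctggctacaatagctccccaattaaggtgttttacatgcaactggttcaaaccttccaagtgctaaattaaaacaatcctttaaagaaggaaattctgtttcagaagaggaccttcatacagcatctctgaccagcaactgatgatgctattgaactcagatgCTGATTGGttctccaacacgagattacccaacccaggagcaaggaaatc

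The matches begin 68 bases before the start in ASNS, 209 in CHAC1, 82 in HLA-DMA and 49 in HLA-DRB1. Both strands of 300-base windows, which run 50 bases past the start, were searched. TGATGNAA was found in 4 of the 15 stress response promoters with an entry (26.7%: ASNS, ATF3, CHAC1 and SLC3A2), against 1.73% of the 9993 tested protein-coding genes with an entry and 3.67% of all 27305 promoters. CTGATTGG was found in 4 of 12 class II promoters (33.3%: HLA-DMA, HLA-DQB1, HLA-DRB1 and HLA-DRB5), against 5.3% of tested genes and 4.16% of all promoters. The Y box letters were also in 3 of the 15 stress response promoters (20%: CHAC1, DDIT3 and SESN2), in CHAC1 as their reverse complement and apart from the first match. TGATGNAA was in 1 of the 12 class II promoters (8.33%: HLA-DOB), so neither motif was found in 1 list alone. Among all called genes, TGATGNAA was in 3.11% of promoters of genes that rose and 6.08% of those that fell. For CTGATTGG these shares were 5.75% and 4.23%. TAAATCAC, which contains the AATC core bound by GFI1, was in none of the 644 promoters of genes that rose, in 3 of the 378 of genes that fell (0.794%), in 0.38% of tested genes and in 0.575% of all promoters. A match is a stretch of letters and no measurement of binding.

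Adding the inhibitor changed 1584 of the 18174 genes tested (8.72% at an adjusted p under 0.05, edgeR's quasi-likelihood test with day as a factor): 1040 were higher in Combo (5.72%) and 544 lower (2.99%). Of these, 906 differed by more than 2-fold, with 251 rises and 68 falls beyond 4-fold. The counts for gene lists below are to be read beside the shares over all genes, 5.72% higher and 2.99% lower. Among the largest rises were FCRLA, VCAN, LY96 and HLA-DMB, and among the largest falls ORM1, S100P, INHBA and AGT, all taken up below. The largest rises and falls were picked only from genes without overlap on either day. For them a lack of overlap within a day was set by that choice. Both Combo libraries lay above both ATRA libraries on each day in 1942 genes (10.7%) and below in 1365 (7.51%). Counts depended on single libraries: 925 genes were called without ATRA day 4 replicate 2, and 947 or 836 without Combo day 4 replicate 1 or 2. With a GC and length correction 1674 genes were called higher and 1752 lower, so the excess of rises over falls was not kept under that correction.

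The largest rise was in FCRLA (ENSG00000132185.16, chr1:161706972-161714352, plus strand), which encodes an Fc receptor-like protein of the endoplasmic reticulum known from B cells. Each set of 4 values below lists day 2 replicates 1 and 2, then day 4 replicates 1 and 2. FCRLA stood at 0.185, 0.61, 0.569 and 0.691 CPM under ATRA and 161, 173, 169 and 176 CPM under Combo. All 4 Combo libraries were far above all 4 ATRA libraries and near each other (log2 fold change 8.35 ± 0.25 (SE), adjusted p = 5.5e-08). VCAN, the matrix proteoglycan versican made by monocytes, was at 0.416, 0.861, 0.438 and 0.444 CPM under ATRA and 47.4, 63.8, 100.0 and 122 CPM under Combo. Both days showed the gap, and the day 4 Combo libraries were the highest of the 8 (log2 fold change 7.13 ± 0.34 (SE), adjusted p = 1e-06). LY96 encodes MD-2, the partner through which TLR4 binds lipopolysaccharide, and measured 0.6, 0.682, 0.744 and 0.494 CPM under ATRA and 21.7, 33.7, 23.9 and 28 CPM under Combo. The groups did not overlap (log2 fold change 5.40 ± 0.23 (SE), adjusted p = 5.9e-07).

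Further large rises came from genes of varied function. NFKBIZ, a nuclear regulator of NF-κB targets, was at 7.57, 6.89, 9.94 and 8.93 CPM under ATRA and 73.8, 70.2, 131 and 128 CPM under Combo, with the day 4 Combo libraries above those of day 2 and all ATRA libraries below 10 CPM (log2 fold change 3.56 ± 0.15 (SE), adjusted p = 5.9e-07). AIM2, a sensor of cytosolic DNA, was at 0.877, 0.61, 1.05 and 0.839 CPM under ATRA and 5.79, 8.12, 11.4 and 13.8 CPM under Combo, again without overlap (log2 fold change 3.50 ± 0.24 (SE), adjusted p = 1.4e-05). GIMAP4, a GTPase otherwise known from lymphocytes, was at 0.0924, 0.144, 0.219 and 0.148 CPM under ATRA and 6.37, 7.48, 12.6 and 13.3 CPM under Combo, low in every ATRA library and highest on day 4 of Combo (log2 fold change 5.96 ± 0.26 (SE), adjusted p = 5.9e-07). RASD2, a Ras-related GTPase, was at 0.462, 0.431, 0.35 and 0.247 CPM under ATRA and 22.8, 16.8, 14.7 and 8.67 CPM under Combo, with Combo libraries that differed among themselves (log2 fold change 5.38 ± 0.27 (SE), adjusted p = 1.4e-06). GRIN2A, a glutamate receptor subunit, rose as well, and nearly all of its signal was on day 4: 0.0462, 0.0359, 0.35 and 0.247 CPM under ATRA and 0.584, 0.279, 8.9 and 13 CPM under Combo (log2 fold change 4.89 ± 0.43 (SE), adjusted p = 6e-05). CD1A, which presents lipids on dendritic cells, was at 0.323, 0.144, 0.569 and 0.346 CPM under ATRA and 7.33, 9.03, 7.99 and 7.21 CPM under Combo, with all Combo libraries alike (log2 fold change 4.55 ± 0.31 (SE), adjusted p = 1.4e-05).

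RAB37 (chr17:74670578-74747335, plus strand), a small GTPase of secretory granules, and CD300LF (chr17:74694311-74712978, minus strand), an inhibitory receptor of myeloid cells, rose together. RAB37 was at 19.1, 17.1, 12.4 and 16.4 CPM under ATRA and 177, 164, 205 and 199.6 CPM under Combo (log2 fold change 3.53 ± 0.17 (SE), adjusted p = 1e-06), and CD300LF at 13.7, 14.2, 11.6 and 14.5 CPM under ATRA and 114, 115, 179 and 179 CPM under Combo (log2 fold change 3.42 ± 0.18 (SE), adjusted p = 2e-06). Neither gene's groups overlapped. CD300LF lies inside RAB37 on the other strand, and whether counting used the strand is not given in the sources used here. Reads of either gene may therefore have been counted for the other, and to what extent was not tested.

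**Figure D1:**
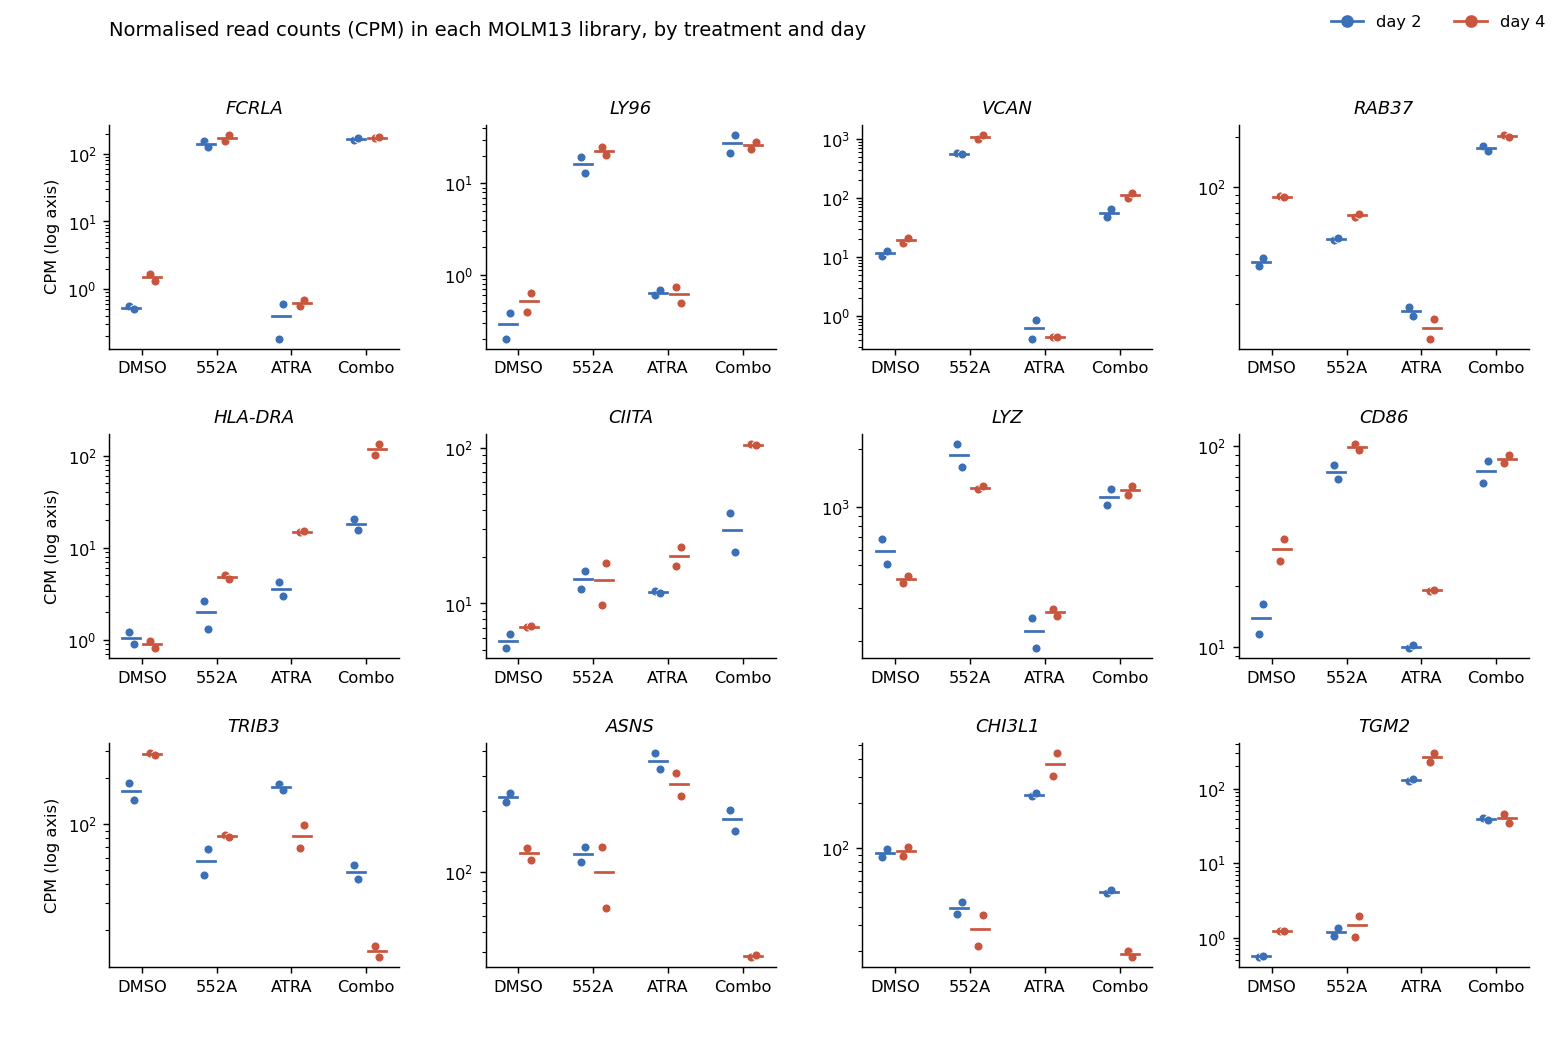
Normalised read counts (CPM, log axis) of 12 genes in each of the 16 MOLM13 libraries by treatment; points are libraries, short lines the mean of the 2 libraries of a day. FCRLA, LY96, VCAN and CD86 were high in both groups with the inhibitor, RAB37 was highest in Combo, HLA-DRA and CIITA were highest in Combo on day 4, and TRIB3, ASNS and CHI3L1 were lowest in Combo on day 4.

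The HLA class II group rose almost as a whole. Of 14 tested members of the list of class II molecules and their accessory proteins, 13 were called higher and none lower, with a median log2 fold change of 2.65 against -0.004 over all genes tested. In 12 of them both Combo libraries lay above both ATRA libraries on each day. HLA-DOB did not pass (log2 fold change 0.09 ± 0.27 (SE), adjusted p = 0.91), and HLA-DOA had too few counts to test. The count was 12 or 13 under each of the 15 alternative settings.

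CIITA (ENSG00000179583.17), the coactivator of the class II promoters, was at 12.1, 11.7, 17.4 and 23.1 CPM under ATRA and 37.9, 21.2, 105 and 104 CPM under Combo. The 4 Combo values exceeded the ATRA values of the same day, but the day 2 Combo libraries overlapped the day 4 ATRA libraries (log2 fold change 1.86 ± 0.26 (SE), adjusted p = 0.0012). HLA-DRA, the alpha chain of HLA-DR, was at 4.2, 2.98, 14.8 and 15.1 CPM under ATRA and 20.3, 15.6, 101 and 134 CPM under Combo, a rise on both days from a level that was itself higher on day 4 (log2 fold change 2.68 ± 0.20 (SE), adjusted p = 2.5e-05). HLA-DMB and HLA-DMA form HLA-DM, which loads peptides onto class II molecules. HLA-DMB measured 0.185, 0.466, 1.4 and 1.18 CPM under ATRA and 13.8, 14.8, 27.6 and 35.3 CPM under Combo (log2 fold change 4.92 ± 0.26 (SE), adjusted p = 2e-06) and HLA-DMA 1.02, 1.44, 1.62 and 2.22 CPM under ATRA and 6.64, 5.41, 12.5 and 14.6 CPM under Combo (log2 fold change 2.57 ± 0.23 (SE), adjusted p = 7.9e-05), both without overlap. For HLA-DMB, among the largest rises, the lack of overlap within a day was set by how those genes were picked. CD74, the invariant chain that escorts class II molecules, was at 181, 135, 242 and 352 CPM under ATRA and 446, 233, 949.8 and 913 CPM under Combo. Its groups overlapped across days and not within them (log2 fold change 1.39 ± 0.23 (SE), adjusted p = 0.0037).

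HLA-DRB1, whose promoter is shown above, was at 0.508, 0.466, 2.36 and 3.21 CPM under ATRA and 4.94, 3.54, 22.3 and 29.2 CPM under Combo, with no overlap (log2 fold change 3.18 ± 0.22 (SE), adjusted p = 1.6e-05). The DR, DQ and DP chains differ between people and resemble each other, so reads may have been split between copies, and the values of HLA-DRB1, HLA-DRB5, HLA-DQA1 and HLA-DQB1 carry that uncertainty. The proteases on this list moved less: CTSS, cathepsin S, which trims CD74, had log2 fold change 0.72 ± 0.13 (SE), adjusted p = 0.0053. In contrast, none of the 15 tested members of the class I presentation list was called in either direction.

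Monocyte and macrophage markers rose in part. Of 22 tested, 11 were called higher and 1 lower (median log2 fold change 0.89), and the list's summed level was 1086 to 1636 CPM in the ATRA libraries and 2309 to 3047 CPM in the Combo libraries. S100A12 and C1QB had no count in any of the 8. LYZ, lysozyme, was at 266, 185, 295 and 272 CPM under ATRA and 1024, 1236, 1157 and 1290.4 CPM under Combo. The groups did not come near each other (log2 fold change 2.23 ± 0.15 (SE), adjusted p = 1.2e-05). MS4A7, a macrophage membrane protein, was at 42.4, 58.1, 38.1 and 39.6 CPM under ATRA and 96.8, 138, 99.4 and 98.8 CPM under Combo (log2 fold change 1.29 ± 0.15 (SE), adjusted p = 0.00038), and MSR1, a scavenger receptor, at 0.323, 0.682, 0.701 and 0.642 CPM under ATRA and 3.45, 3.54, 5.27 and 4.23 CPM under Combo (log2 fold change 2.79 ± 0.26 (SE), adjusted p = 0.0001), neither with overlap. LGMN, the lysosomal protease legumain, started near 0: 0, 0.179, 0.175 and 0.0987 CPM under ATRA and 1.81, 2.15, 3.8 and 3.77 CPM under Combo (log2 fold change 4.51 ± 0.44 (SE), adjusted p = 0.00013).

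The single fall among the monocyte markers was FCGR1A, a high-affinity IgG receptor with near-identical gene copies, at 25.4, 19.9, 16.3 and 16 CPM under ATRA and 15.1, 14, 5.95 and 4.3 CPM under Combo (log2 fold change -1.12 ± 0.22 (SE), adjusted p = 0.0097). CSF1R, the receptor for macrophage colony stimulating factor, was at 23.7, 35.6, 21.8 and 34.8 CPM under ATRA and 48.7, 48.9, 50.6 and 45.3 CPM under Combo. Its call (log2 fold change 0.75 ± 0.18 (SE), adjusted p = 0.028) was lost with all 16 MOLM13 libraries in the fit (adjusted p = 0.19) and without ATRA day 2 replicate 1, ATRA day 4 replicate 1, Combo day 2 replicate 1 or either day 4 Combo library (0.06 to 0.093). CD14 passed at levels below 1 CPM: 0.0924, 0.0718, 0.0876 and 0.148 CPM under ATRA and 0.584, 0.318, 0.567 and 0.198 CPM under Combo (log2 fold change 2.04 ± 0.54 (SE), adjusted p = 0.039). That call was lost in DESeq2 (adjusted p = 0.073), with all 16 libraries (0.17) and without any 1 library other than Combo day 2 replicate 2 or Combo day 4 replicate 2 (0.085 to 0.19). CD163, a hemoglobin scavenger receptor, had 2 counts over the 4 ATRA libraries and 69 over the 4 Combo libraries, a ratio of 41.6 with a 95% counting interval of 11.1 to 351.

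Of the surface markers used to follow myeloid maturation, 3 of 15 rose and 2 fell. CD86, a costimulator of T cells, was at 9.88, 10.2, 18.9 and 19.3 CPM under ATRA and 65.2, 84, 81.8 and 89.5 CPM under Combo. Its 4 Combo libraries stood clear of the ATRA libraries on both days (log2 fold change 2.54 ± 0.17 (SE), adjusted p = 1.2e-05). ITGAM encodes CD11b, a standard maturation marker, and was at 82.9, 87.7, 83.6 and 107 CPM under ATRA and 260.3, 260.3, 259 and 223 CPM under Combo, also without overlap (log2 fold change 1.48 ± 0.13 (SE), adjusted p = 5.2e-05). FUT4, the enzyme that makes the CD15 epitope, fell: 304, 249, 360.4 and 298 CPM under ATRA and 199, 193, 184 and 163 CPM under Combo (log2 fold change -0.70 ± 0.13 (SE), adjusted p = 0.0065). CD38, which ATRA itself raised, was at 306, 442, 496 and 380.1 CPM under ATRA and 375, 483, 458 and 453 CPM under Combo, and this difference did not pass (log2 fold change 0.13 ± 0.15 (SE), adjusted p = 0.71).

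Of 17 listed dendritic cell genes, 10 had enough counts to test, and CLEC9A and IL3RA had no count in any of the 8 libraries. Reads of a gene present on both X and Y, such as IL3RA, can be lost in counting. Its lack of counts is therefore no evidence of absent RNA, and this was not tested. Of the 10 tested, 6 were called higher and none lower (median 1.36). The list's summed level overlapped, at 757 to 893 CPM in the ATRA libraries and 885 to 1091 CPM in the Combo libraries. BATF3, needed for a dendritic cell type, was not on this list but among the myeloid factors, and it fell, as given below. Beside CD1A, described above, CD1B had 1 count under ATRA and 50 under Combo (ratio 60.4, 95% counting interval 10.3 to 2431), and CCR7, the homing receptor of mature dendritic cells, 3 and 47 (ratio 18.9, interval 6.09 to 95). CD1C was at 0, 0.0359, 0.263 and 0.346 CPM under ATRA and 1.65, 1.31, 3 and 2.05 CPM under Combo (log2 fold change 3.78 ± 0.48 (SE), adjusted p = 0.00066). IRF8, a transcription factor of monocytes and dendritic cells, was expressed at 319.5, 267, 232 and 246 CPM under ATRA and 372, 493, 367 and 397 CPM under Combo. The Combo libraries were the 4 highest, by a small margin (log2 fold change 0.63 ± 0.13 (SE), adjusted p = 0.011), and the call was lost without Combo day 4 replicate 2 (adjusted p = 0.065).

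Of 25 tested lysosomal genes 7 were called higher and none lower, 18 did not pass, and the median was 0.10. SCPEP1, a serine carboxypeptidase, was at 162, 117, 192 and 172 CPM under ATRA and 341, 334, 343 and 323 CPM under Combo (log2 fold change 1.08 ± 0.13 (SE), adjusted p = 0.00061). NPC2, which carries cholesterol out of lysosomes, was at 80.9, 64, 93.2 and 96.9 CPM under ATRA and 137, 150.0, 167 and 165 CPM under Combo (log2 fold change 0.90 ± 0.11 (SE), adjusted p = 0.00062), and CTSZ, a cathepsin, at 93.8, 69.2, 88.2 and 119 CPM under ATRA and 177, 179, 192 and 215 CPM under Combo (log2 fold change 1.06 ± 0.14 (SE), adjusted p = 0.00091). All 3 were without overlap and rose by close to 2-fold. PSAP, the precursor of the saposins, stood at 1481, 976, 1489 and 1618 CPM under ATRA and 2863, 2125, 3143 and 2774 CPM under Combo (log2 fold change 0.99 ± 0.17 (SE), adjusted p = 0.0043).

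Among 22 tested inflammatory cytokines and receptors, 8 rose and 2 fell. CXCR4, the receptor for CXCL12, was at 35.9, 31.6, 31.9 and 31.4 CPM under ATRA and 85.8, 100.4, 79.4 and 82.2 CPM under Combo, with narrow groups (log2 fold change 1.42 ± 0.11 (SE), adjusted p = 3.3e-05). IL1B was at 0.231, 0.215, 1.18 and 1.63 CPM under ATRA and 1.49, 1.83, 3.4 and 5.62 CPM under Combo (log2 fold change 2.14 ± 0.32 (SE), adjusted p = 0.0021). The chemokine gene CCL5 fell, from values that differed between ATRA replicates on day 4: 87.7, 83.2, 54.4 and 118 CPM under ATRA and 35.7, 26.1, 19.1 and 18.1 CPM under Combo (log2 fold change -1.83 ± 0.25 (SE), adjusted p = 0.0011). The number of rises dropped to 5 without ATRA day 4 replicate 2 and to 4 without Combo day 4 replicate 2.

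Interferon response genes were raised in a minority: 9 of 34 tested were called higher and none lower (median 0.39). With all 16 MOLM13 libraries in the fit, 4 were called, and 6 without Combo day 4 replicate 2. GBP1, an interferon-induced GTPase, had 3 counts over the ATRA libraries and 673 over the Combo libraries, a ratio of 270.8 with a 95% counting interval of 92.3 to 1316. GBP4 was at 33.2, 27.5, 99.1 and 84.3 CPM under ATRA and 54.7, 57.3, 170.1 and 194 CPM under Combo, and here the day 4 ATRA libraries exceeded the day 2 Combo libraries (log2 fold change 0.95 ± 0.12 (SE), adjusted p = 0.00061). IFIT3, an interferon-induced antiviral protein, was at 6.37, 6.64, 10.5 and 10.0 CPM under ATRA and 14.1, 15.5, 21.8 and 20.2 CPM under Combo (log2 fold change 1.11 ± 0.14 (SE), adjusted p = 0.00063). Its 4 Combo libraries were above all ATRA libraries, and its adjusted p with all 16 libraries was 0.086.

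Retinoic acid response genes went both ways: 5 of 18 tested rose and 3 fell (median 0.09). TGM2, a transglutaminase and a classical retinoid target, was at 129, 135, 230.1 and 299.5 CPM under ATRA and 40.2, 38, 46.5 and 35.3 CPM under Combo. It was the largest fall of the list, without overlap (log2 fold change -2.22 ± 0.20 (SE), adjusted p = 7.5e-05), although in DMSO it was at 0.555, 0.573, 1.25 and 1.26 CPM, so that Combo remained far above DMSO. NRIP1, a corepressor induced by retinoids, was at 6.97, 8.47, 30.6 and 22.2 CPM under ATRA and 17.5, 28.6, 71.7 and 84 CPM under Combo, a rise on each day (log2 fold change 1.58 ± 0.18 (SE), adjusted p = 0.00039). RARRES3, a retinoid-induced growth suppressor, was at 23.4, 21.7, 37 and 43.4 CPM under ATRA and 47.1, 43.2, 66.4 and 60.3 CPM under Combo (log2 fold change 0.84 ± 0.13 (SE), adjusted p = 0.0024). CYP26A1, the enzyme that degrades retinoic acid and a common readout of receptor activity, was at 1.75, 1.9, 17.3 and 11.1 CPM under ATRA and 1.91, 2.98, 18 and 12 CPM under Combo, with the days far apart and the treatments overlapping (log2 fold change 0.25 ± 0.23 (SE), adjusted p = 0.63). CYP26A1 had no count in the DMSO and 552A libraries. RARA, the receptor itself, had log2 fold change 0.19 ± 0.26 (SE), adjusted p = 0.78. RARG, another receptor, lost its call (log2 fold change 1.07 ± 0.23 (SE), adjusted p = 0.014) without Combo day 2 replicate 1 or Combo day 4 replicate 1 (adjusted p = 0.058 and 0.061). The number of rises on the list was 2 without Combo day 2 replicate 1 or Combo day 4 replicate 1, and 3 without ATRA day 2 replicate 2, ATRA day 4 replicate 1 or 2, or Combo day 4 replicate 2.

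**Figure D2:**
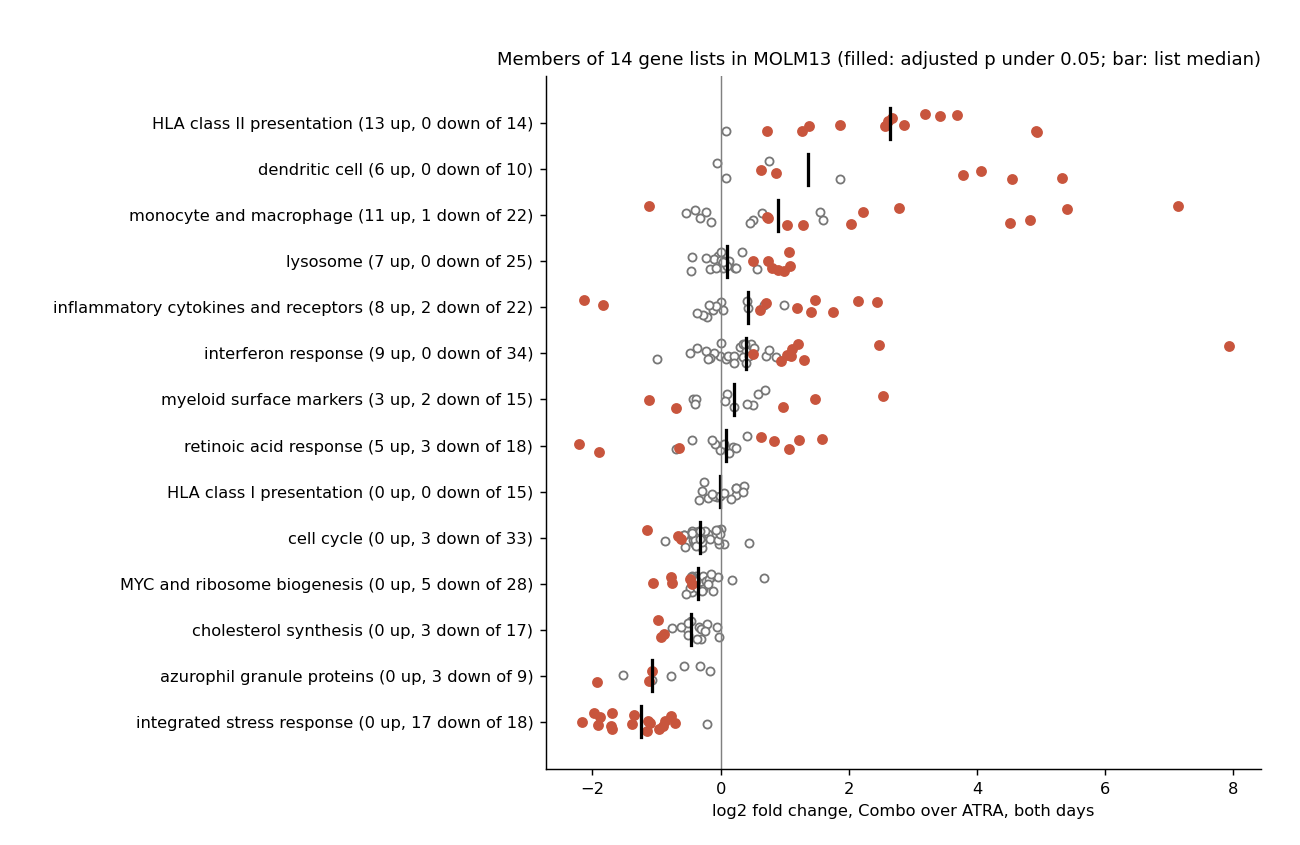
Log2 fold change of Combo over ATRA (x axis) for the tested members of 14 gene lists; each point is 1 gene, filled where its adjusted p was under 0.05, and the bar is the median of the list. Members of the class II list lie right of 0 with a median of 2.65, members of the stress response list lie left of 0 with a median of -1.25, and the class I list is centred on 0.

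Among the largest falls, which were picked only from genes without overlap within a day, were INHBA and INHBE, which encode activin subunits. INHBA was at 7.94, 9.33, 6.74 and 10.3 CPM under ATRA and 0.69, 1.07, 0.68 and 0.397 CPM under Combo (log2 fold change -3.56 ± 0.28 (SE), adjusted p = 2.9e-05), and INHBE at 4.16, 3.73, 4.29 and 4.44 CPM under ATRA and 1.12, 0.796, 0.113 and 0.0662 CPM under Combo (log2 fold change -3.08 ± 0.49 (SE), adjusted p = 0.0029). Neither gene's groups overlapped. AGT, angiotensinogen, was at 10.6, 9.04, 10.4 and 15.2 CPM under ATRA and 1.54, 0.955, 1.19 and 0.794 CPM under Combo (log2 fold change -3.31 ± 0.27 (SE), adjusted p = 3.4e-05), and CHI3L1, the chitinase-like glycoprotein YKL-40, at 224, 233, 307 and 436 CPM under ATRA and 49.2, 51.9, 20.1 and 18.3 CPM under Combo (log2 fold change -3.20 ± 0.38 (SE), adjusted p = 0.00042). CHI3L1 was at its lowest on day 4 of Combo, when ATRA was at its highest. TREM2, a lipid-sensing receptor of macrophages, was at 25.3, 28.1, 18.2 and 27.4 CPM under ATRA and 5.2, 5.73, 2.95 and 2.45 CPM under Combo and fell while 11 monocyte and macrophage markers rose (log2 fold change -2.65 ± 0.22 (SE), adjusted p = 4.3e-05). S100P, a calcium-binding protein, was at 7.76, 3.66, 3.11 and 3.16 CPM under ATRA and 0.425, 0.279, 0.0567 and 0.265 CPM under Combo (log2 fold change -4.11 ± 0.39 (SE), adjusted p = 0.00011). ORM1, an acute-phase protein with a near-identical copy, was at 6.23, 5.74, 2.93 and 6.02 CPM under ATRA and 0.372, 0.478, 0 and 0 CPM under Combo, with no count on day 4 of Combo (log2 fold change -4.60 ± 0.55 (SE), adjusted p = 0.00045). ASS1, which makes arginine's precursor argininosuccinate, was at 897, 620.5, 372 and 538 CPM under ATRA and 284, 172, 24.1 and 23.8 CPM under Combo (log2 fold change -2.96 ± 0.48 (SE), adjusted p = 0.003). Its day 4 Combo libraries were far below every other library.

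The integrated stress response fell almost as a whole. Of 18 tested members, 17 were called lower and none higher, with a median log2 fold change of -1.25. In 16 of them both Combo libraries lay below both ATRA libraries on each day. The list's summed level was 2849 to 4807 CPM under ATRA and 988 to 2728 CPM under Combo. The number called was 13 to 17 under the 15 alternatives, lowest without Combo day 4 replicate 2.

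ATF4 (ENSG00000128272.14), the transcription factor at the head of the response, was at 989.8, 792, 554 and 647 CPM under ATRA and 556, 633, 325 and 332 CPM under Combo. Both days showed lower Combo values, while day 2 Combo overlapped day 4 ATRA (log2 fold change -0.72 ± 0.13 (SE), adjusted p = 0.0056). ATF4 is also controlled at translation, which RNA does not measure. Larger falls were seen in its targets. TRIB3, a pseudokinase induced by ATF4, was at 182, 166, 69 and 97.4 CPM under ATRA and 53.3, 43.2, 15.8 and 13.4 CPM under Combo, without overlap (log2 fold change -2.17 ± 0.18 (SE), adjusted p = 4.3e-05). CHAC1, which degrades glutathione, was at 33.9, 30.6, 8.28 and 15.3 CPM under ATRA and 11.1, 7.08, 2.78 and 2.45 CPM under Combo, and the first day 2 Combo library lay within the range of the day 4 ATRA libraries (log2 fold change -1.98 ± 0.24 (SE), adjusted p = 0.00047). DDIT3, which encodes CHOP, had log2 fold change -0.86 ± 0.17 (SE), adjusted p = 0.0099. ATF5 was the member that did not pass (log2 fold change -0.22 ± 0.23 (SE), adjusted p = 0.69).

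Genes for amino acid supply fell within the same list. ASNS, asparagine synthetase, was at 387, 325, 309 and 238 CPM under ATRA and 203, 159.9, 37.6 and 38.4 CPM under Combo. The day 4 Combo libraries were far below those of day 2, and every ATRA library was higher than all of Combo (log2 fold change -1.89 ± 0.33 (SE), adjusted p = 0.0047). PHGDH and PSAT1 catalyse successive steps of serine synthesis. PHGDH was at 309, 219.7, 145 and 192 CPM under ATRA and 192, 98.1, 21.1 and 20.6 CPM under Combo (log2 fold change -1.91 ± 0.41 (SE), adjusted p = 0.016), and PSAT1 at 384, 295, 292 and 273 CPM under ATRA and 237, 204, 42.6 and 35.9 CPM under Combo (log2 fold change -1.71 ± 0.38 (SE), adjusted p = 0.018). Both calls were lost without either day 4 Combo library (adjusted p from 0.066 to 0.084). SLC7A11, the cystine transporter, was at 114, 145, 120.2 and 99 CPM under ATRA and 53.3, 70.2, 18.3 and 24.4 CPM under Combo (log2 fold change -1.69 ± 0.25 (SE), adjusted p = 0.0018), and MTHFD2, of mitochondrial folate metabolism, at 787, 643, 625 and 524 CPM under ATRA and 458, 467, 191 and 193 CPM under Combo (log2 fold change -1.10 ± 0.18 (SE), adjusted p = 0.0039). ALDH1L2, a mitochondrial folate enzyme outside the list, was at 174, 247, 188 and 176 CPM under ATRA and 107, 94, 15 and 20.6 CPM under Combo and fell too (log2 fold change -2.18 ± 0.40 (SE), adjusted p = 0.0067).

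Azurophil granule genes, which mark promyelocytes, were called lower in 3 of 9 tested: RNASE2, CTSG and MPO. RNASE2, a ribonuclease, was at 120.4, 141, 117 and 131 CPM under ATRA and 60.7, 97.8, 12 and 14.5 CPM under Combo (log2 fold change -1.93 ± 0.44 (SE), adjusted p = 0.02), and MPO, myeloperoxidase, at 156, 115, 58.2 and 101 CPM under ATRA and 106, 84.8, 29.5 and 20.4 CPM under Combo (log2 fold change -1.07 ± 0.27 (SE), adjusted p = 0.03). Both genes were lower in both Combo libraries on each day. None of the 3 was called without Combo day 4 replicate 1 or 2, and 1 was called without ATRA day 4 replicate 2.

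Growth-related lists moved less than the stress response list, and mostly downward. MYC, the growth-promoting transcription factor, was at 695, 504, 309.5 and 550.2 CPM under ATRA and 388, 245, 197 and 180.0 CPM under Combo, lower in Combo on each day with overlap between days (log2 fold change -1.05 ± 0.21 (SE), adjusted p = 0.011), and lost its call without Combo day 4 replicate 2 (adjusted p = 0.053). Of 28 tested MYC and ribosome biogenesis genes 5 were called lower and none higher (median -0.35), of 33 cell cycle genes 3 and none (median -0.33), and of 17 cholesterol synthesis genes 3 and none (median -0.46). Called or not, 26, 30 and 17 of them lay below 0, beside 9177 of all 18174 genes tested. The cell cycle list summed to 4134 to 4402 CPM in ATRA and 2988 to 3078 CPM in Combo on day 4, and overlapped on day 2. CCND2, cyclin D2, was at 152, 228, 213 and 181 CPM under ATRA and 87.6, 108, 78.7 and 76.1 CPM under Combo (log2 fold change -1.14 ± 0.15 (SE), adjusted p = 0.00098). With the GC and length correction 15, 11 and 9 genes of these lists were called lower, so these counts depended on how GC content was treated. With all 16 libraries in the fit 5, 5 and 0 were called. Without Combo day 2 replicate 2 the counts were 8, 8 and 8, without ATRA day 2 replicate 2 they were 8, 8 and 3, without ATRA day 2 replicate 1 they were 3, 1 and 5, without Combo day 4 replicate 2 they were 2, 1 and 2, and without any of the other 4 libraries 3, 1 and 3.

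Among cell cycle inhibitors, CCNG2, an atypical cyclin that rises in resting cells, was at 19.6, 19.3, 22.9 and 22.1 CPM under ATRA and 41.6, 38.8, 35.3 and 39.4 CPM under Combo (log2 fold change 0.90 ± 0.13 (SE), adjusted p = 0.0015), while CDKN1A, which encodes p21, was at 135, 85.7, 75.3 and 101 CPM under ATRA and 88.6, 43.4, 43.4 and 39.7 CPM under Combo with overlapping groups (log2 fold change -0.90 ± 0.23 (SE), adjusted p = 0.035), a call lost without ATRA day 2 replicate 1, ATRA day 4 replicate 2, Combo day 2 replicate 2 or either day 4 Combo library (adjusted p = 0.051 to 0.13). Of 23 tested pro-apoptotic genes only TNFSF10 was called, beside 8.72% of all genes tested. TNFSF10 encodes the death ligand TRAIL and was at 9.14, 8.93, 14.2 and 15 CPM under ATRA and 26.9, 30.0, 30.5 and 30.3 CPM under Combo (log2 fold change 1.37 ± 0.15 (SE), adjusted p = 0.00034). BIRC3, an inhibitor of apoptosis, was the single called member of 10 anti-apoptotic genes, and most of its signal was on day 4: 0.416, 0.789, 2.93 and 3.01 CPM under ATRA and 1.06, 1.63, 10.4 and 15.3 CPM under Combo (log2 fold change 1.74 ± 0.30 (SE), adjusted p = 0.0047).

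Of 15 tested genes of the LSD1 and GFI1 complex, GFI1 was called higher and RCOR2 lower, beside 5.72% and 2.99% of all genes tested. KDM1A, which encodes LSD1 and whose activity, not its RNA, the compound blocks, was at 183, 163, 157 and 153 CPM under ATRA and 154, 184, 128 and 136 CPM under Combo (log2 fold change -0.12 ± 0.11 (SE), adjusted p = 0.62). GFI1 was at 229, 204, 194 and 206 CPM under ATRA and 347, 308, 309 and 275 CPM under Combo and slightly higher in every Combo library (log2 fold change 0.58 ± 0.11 (SE), adjusted p = 0.0071). RCOR2, a CoREST family member, was at 2.17, 2.37, 1.71 and 3.06 CPM under ATRA and 0.85, 0.915, 1.59 and 1.06 CPM under Combo (log2 fold change -1.09 ± 0.28 (SE), adjusted p = 0.037). Its call was lost with all 16 libraries (adjusted p = 0.07) and without any 1 library other than ATRA day 4 replicate 1 or Combo day 4 replicate 1 (0.063 to 0.14). GFI1B had 3 counts under ATRA and 11 under Combo, too few to test. HOXA9 and MEIS1, the targets of KMT2A fusions, had log2 fold changes of 0.13 ± 0.13, adjusted p = 0.66 and 0.30 ± 0.13, adjusted p = 0.19. The myeloid factors SPI1 and CEBPA had -0.12 ± 0.29, adjusted p = 0.88 and -0.58 ± 0.19, adjusted p = 0.093. Among other myeloid factors BATF3, needed for a dendritic cell type, fell: 6.42, 4.09, 1.8 and 2.91 CPM under ATRA and 1.06, 0.756, 0.453 and 0.265 CPM under Combo (log2 fold change -2.58 ± 0.30 (SE), adjusted p = 0.00041). KLF4, a monocyte factor, rose: 1.71, 1.26, 1.71 and 2.07 CPM under ATRA and 3.45, 3.1, 6.29 and 4.37 CPM under Combo (log2 fold change 1.33 ± 0.23 (SE), adjusted p = 0.0042).

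Markers of other lineages were low with few exceptions. Of 16 listed mast cell, basophil and eosinophil genes only 4 could be tested, and none of these was called. The summed level of the megakaryocyte and erythroid list was 17.0 to 31.4 CPM under ATRA and 13.7 to 25.8 CPM under Combo, with VWF called lower. The summed level of the lymphoid list was 40.6 to 71.0 CPM under ATRA and 232 to 258 CPM under Combo, most of it FCRLA. Of its 8 tested members 2 were called, FCRLA and CD3D, a T cell receptor chain at 7.07, 6.85, 6.92 and 10.8 CPM under ATRA and 16.4, 18.8, 21.1 and 27.4 CPM under Combo (log2 fold change 1.40 ± 0.19 (SE), adjusted p = 0.00088). CD3E and PAX5 were near 0, as given above.

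By day, 362 genes were called on day 2 (1.99%: 303 higher, 1.67%, and 59 lower, 0.325%) and 917 on day 4 (5.05%: 576 higher, 3.17%, and 341 lower, 1.88%). Of the genes higher on day 2, 260 were also higher on day 4 (85.81% of the day 2 and 45.14% of the day 4 calls), and of those lower 57 were (96.61% and 16.72%). The direct test of day 4 against day 2 called no gene in edgeR (0.0% of 18174), with 500 at an unadjusted p under 0.05 (2.75%), and 15 in DESeq2, so the larger count on day 4 is not by itself a difference between days. Without 1 library the day 2 count was 158 or 164 (ATRA day 2 replicate 1 or 2), 189 (Combo day 2 replicate 2), and 238, 232 or 232 (Combo day 2 replicate 1, Combo day 4 replicate 1 or 2). The day 4 count was 365 or 334 without ATRA day 4 replicate 1 or 2, and 247 or 255 without Combo day 4 replicate 1 or 2.

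Within the class II and stress response lists the test of day 4 against day 2 called none of 14 and none of 18 genes in edgeR, so the counts by day are a description. On day 2, 6 class II genes were called and on day 4, 11. HLA-DMB was called on both days (log2 fold change 5.36 and 4.63), while HLA-DQA1 had 2.01, not called, and 4.27, called. Of the stress response 5 genes were called on day 2 and 14 on day 4. TRIB3 was called on both (-1.87 and -2.48), and so was ASNS (-0.98 and -2.81), while PHGDH had -0.87 on day 2, not called, and -2.99 on day 4. The genes with the smallest p for a difference between the days included PSAT1 (day 4 minus day 2 -2.18 ± 0.26, adjusted p = 0.18) and CHI3L1 (-2.06 ± 0.28, adjusted p = 0.18), and neither passed in edgeR. Both passed in DESeq2 (adjusted p = 2.2e-06 and 1.8e-05) and with the GC and length correction (0.024 and 0.0036). The day 2 count of stress response genes was 1 without ATRA day 2 replicate 1 or 2 or Combo day 2 replicate 2, 2 without either day 4 Combo library, and 13 with the GC correction. The day 4 count was 7 without ATRA day 4 replicate 2 or either day 4 Combo library, and the day 2 class II count was 3 without ATRA day 2 replicate 1.

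**Figure D3:**
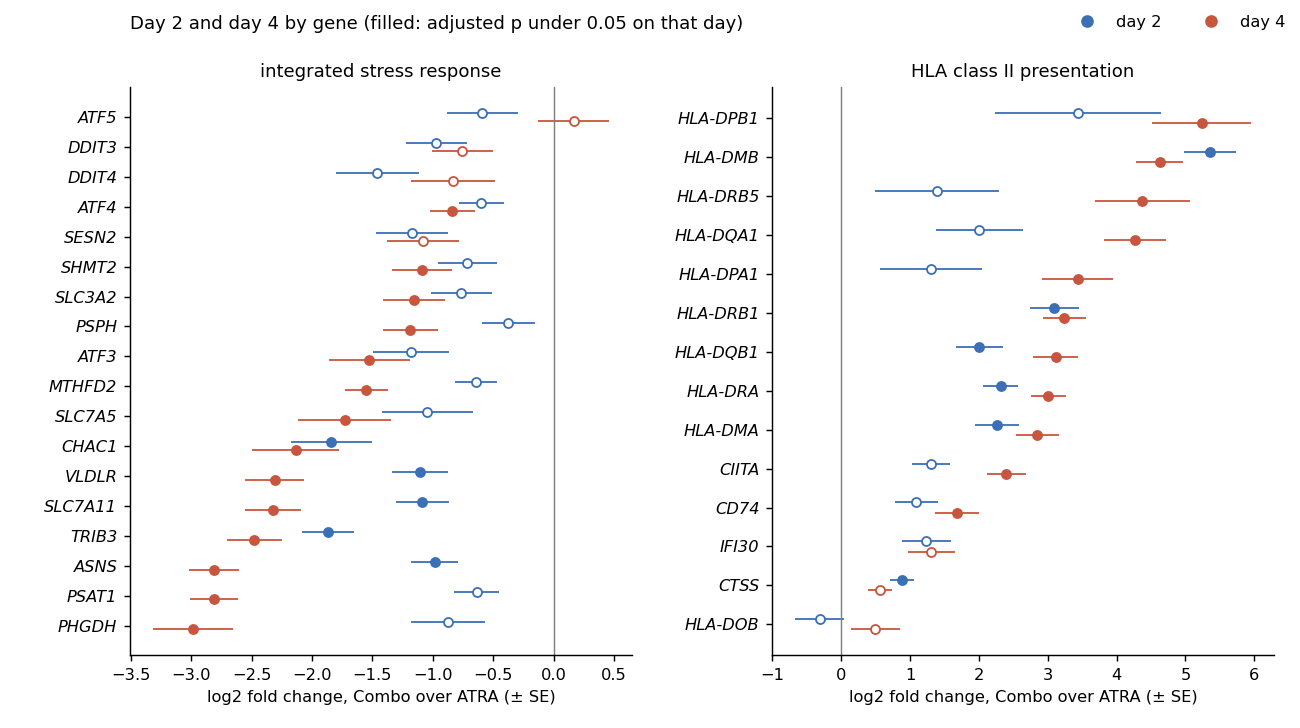
Log2 fold change of Combo over ATRA (x axis, bars are 1 SE) on day 2 and day 4 for each tested gene of the stress response and class II lists; filled points had an adjusted p under 0.05 on that day. For ASNS, PSAT1 and PHGDH the day 4 value lies below that of day 2 (day 4 minus day 2 -1.83, -2.18 and -2.11), while the 2 values of HLA-DMB, HLA-DRB1 and CHAC1 lie close together; no difference between days passed edgeR's test over all genes.

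The same inhibitor without ATRA, 552A against DMSO, shares no library with Combo against ATRA. In the fit of all 16 MOLM13 libraries 817 of 19131 genes were called (4.27%: 3.18% higher and 1.09% lower). Of 1037 genes higher in Combo and tested in both, 448 were also higher in 552A (43.2%, and 79.01% of the 567 higher there), and none was lower. Of 543 lower genes 144 were also lower (26.52%, and 70.24% of 205), and 1 was higher. The count for 552A was 461 or 478 without DMSO day 4 replicate 1 or 2. Lists that follow RNA quality and selection moved with this comparison: all 13 mitochondrially encoded genes were above 0 (median log2 fold change 0.67, 1 called) and all 10 replication-dependent histone genes below 0 (median -0.81, 2 called). For the effect with minus without ATRA the medians were -0.89 (13 of 13 below 0) and 0.68 (10 of 10 above 0), none called, and for MOLM13 minus MV411, given further on, -0.75 and 0.75, none called. Their part in the results was not tested.

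FCRLA was at 0.555, 0.509, 1.65 and 1.32 CPM in DMSO and 154, 128, 155 and 190.3 CPM in 552A, about the level reached in Combo. LY96 had a log2 fold change of 5.63 without ATRA and 5.40 with it, and CD86 2.05 and 2.54. VCAN reached the highest levels without ATRA: 10.2, 12.8, 17.6 and 20.7 CPM in DMSO and 567, 561, 989.6 and 1163 CPM in 552A. ATRA against DMSO, which shares the ATRA libraries (8.55% of genes called, 4.54% higher and 4.01% lower), had -4.77 for VCAN, and the Combo values given above lie between those of DMSO and 552A. For the stress response 6 of 18 genes were called lower by 552A alone, and the direct test of the effect with against without ATRA called none of the 18. That 6 became 1 without 552A day 2 replicate 1 or DMSO day 4 replicate 1, 2 without DMSO day 4 replicate 2 and 3 without DMSO day 2 replicate 1. TRIB3 was among the 6 (log2 fold change -1.65 ± 0.16 (SE), adjusted p = 4e-05), and ASNS was not (log2 fold change -0.62 ± 0.19 (SE), adjusted p = 0.1).

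Whether the inhibitor's effect differed with and without ATRA was tested directly, and 16 of 19131 genes passed (0.0836%: 6 with a higher log2 change under ATRA, 0.0314%, and 10 with a lower one, 0.0523%), with 928 at an unadjusted p under 0.05 (4.85%). RAB37 and the overlapping CD300LF headed the first kind. RAB37 was at 33.7, 37.9, 87.8 and 86.7 CPM in DMSO and 48.4, 49.5, 66.5 and 69.2 CPM in 552A, where it did not pass (0.04 ± 0.11, adjusted p = 0.91), and the difference of the 2 effects was 3.48 ± 0.16, adjusted p = 3.1e-07. PALLD, an actin-bundling protein, differed likewise: it was at 1.31, 1.65, 2.96 and 3.2 CPM in DMSO, 2.04, 2.15, 2.84 and 2.56 in 552A, 7.85, 9.26, 51.4 and 40.6 in ATRA and 53.4, 56.6, 156 and 176 in Combo (difference 2.11 ± 0.20, adjusted p = 0.00048).

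TGM2 (-2.93 ± 0.28, adjusted p = 0.00048), CHI3L1 (-1.74 ± 0.23, adjusted p = 0.011), RNASE2 (-1.79 ± 0.25, adjusted p = 0.017) and ASS1 (-1.71 ± 0.26, adjusted p = 0.029) had lower log2 changes with ATRA than without it. IL31RA, an interleukin receptor chain, was at 8.17, 12.3, 11.3 and 10.8 CPM in DMSO, 38.1, 41.2, 38.1 and 31.1 in 552A, 105, 108, 165 and 135 in ATRA and 105, 119, 78.4 and 83 in Combo. It rose with the inhibitor alone, and its effects differed by -2.21 ± 0.20, adjusted p = 0.00034. The number passing was 5 to 10 without 1 library in 12 of 16 cases: 5 without Combo day 4 replicate 1, 6 without Combo day 4 replicate 2, ATRA day 4 replicate 2 or DMSO day 4 replicate 1, 7 without 552A day 2 replicate 1 or ATRA day 2 replicate 1, 8 without DMSO day 2 replicate 2, 9 without ATRA day 4 replicate 1, DMSO day 2 replicate 1 or DMSO day 4 replicate 2, and 10 without ATRA day 2 replicate 2 or Combo day 2 replicate 2.

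**Figure D4:**
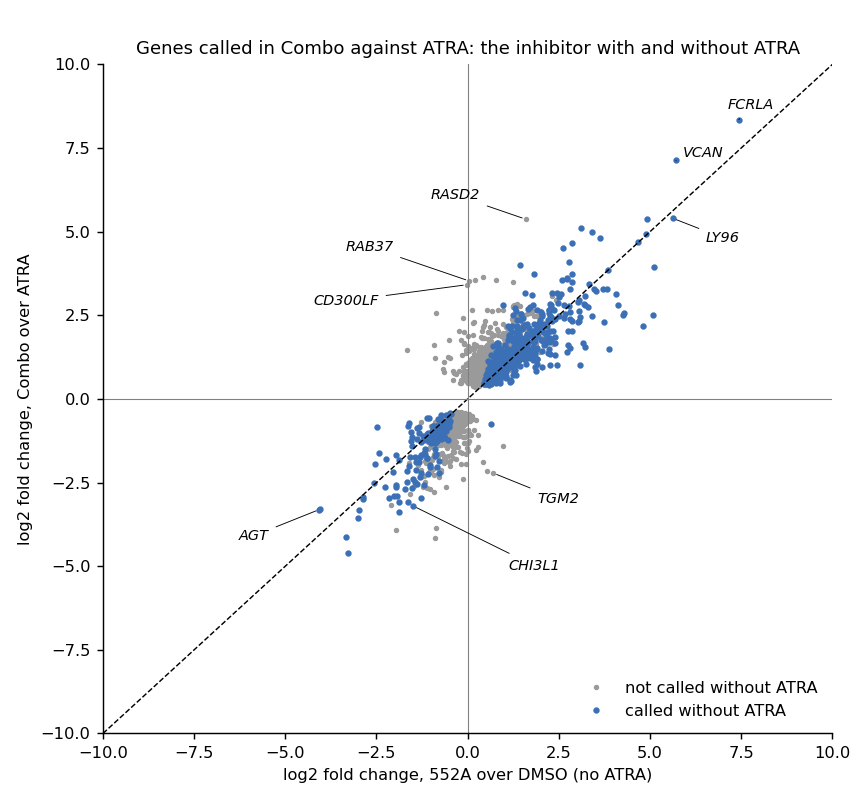
Log2 fold change of Combo over ATRA (y axis) against that of 552A over DMSO (x axis) for 1499 genes called in the first comparison; 81 genes with 3 or fewer counts in 1 of the 4 treatments are not drawn, blue points were also called without ATRA, and the dashed line marks equal values. FCRLA, VCAN and LY96 lie near the line at the upper right, RAB37 and CD300LF lie near 0 on the x axis, and TGM2 is below 0 on the y axis only.

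MV411 and THP1 gave the same comparison in other KMT2A-fusion lines, with 31.4% of 21815 genes called in MV411 (16.7% higher, 14.7% lower) and 23.9% in THP1 (12.9% higher, 11.0% lower). These calls come from a fit of 24 libraries with 12 residual degrees of freedom. Those of MOLM13 come from 8 libraries with 5, so numbers of calls do not compare the sizes of the responses. Shares of the calls of MV411 and THP1 below count only the 18174 genes also tested in MOLM13. Of the 1040 genes higher in MOLM13, 618 were higher in MV411 (59.42%, and 19.07% of its 3241 such calls) and 52 were lower. In THP1 552 were higher (53.08%, 24.26% of its 2275 such calls) and 36 lower. Of the 544 lower genes 348 were lower in MV411 (63.97%, 11.5% of its 3027 such calls) and 13 higher. In THP1 210 were lower (38.6%, 9.576% of its 2193 such calls) and 54 higher. The difference between lines passed for 1218 genes against MV411 (5.58%: 2.77% with a higher change in MOLM13, 2.81% with a lower one) and for 1678 against THP1 (7.69%: 4.35% and 3.34%). The first count was 730 without MOLM13 ATRA day 4 replicate 1, 722 without MOLM13 Combo day 4 replicate 1 and 2760 without MV411 Combo day 4 replicate 1.

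HLA class II rose in all 3 lines, in 13 of 14 genes in MOLM13, 12 of 15 in MV411 and 13 of 15 in THP1. HLA-DRA in MV411 was at 4.32, 4.5, 35.9 and 44.5 CPM under ATRA and 90.4, 94.4, 313 and 365 under Combo, and rose more than in MOLM13 (MOLM13 minus MV411 -1.09 ± 0.20, adjusted p = 0.0026). HLA-DMB rose by 4.95 in MV411 and 2.59 in THP1 on the log2 scale, and the excess of MOLM13 over THP1 passed (2.39 ± 0.25, adjusted p = 7.6e-06). Over the list 1 difference from MV411 was positive and 2 were negative, and 6 from THP1 were positive and 1 negative. Without any 1 of the 16 MOLM13 and THP1 libraries those 6 became 3 to 5.

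Interferon response genes differed most between MOLM13 and MV411: 27 of 35 had a higher and 1 a lower log2 change in MOLM13 (median difference 2.07, and 18 to 30 higher without 1 library). In MV411 28 of 35 fell. IFIT3 there was at 4.79, 0.924, 129.6 and 102 CPM under ATRA and 3.76, 2.44, 5.07 and 5.59 CPM under Combo. The high values were those of ATRA on day 4, a level that no MOLM13 library of either group reached (at most 21.8 CPM). The difference between the lines was 3.25 ± 0.42, adjusted p = 9e-05.

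Against THP1, cell cycle genes stood out: 22 of 33 had a higher and 1 a lower log2 change in MOLM13 (21 to 26 higher without 1 library), and 28 fell in THP1. MCM6, a subunit of the replicative helicase, was at 194, 164, 159 and 189 CPM under ATRA and 67, 62.9, 32.7 and 36.6 under Combo in THP1, where the log2 fold change was -1.89, against -0.62 in MOLM13 (difference 1.24 ± 0.15, adjusted p = 3.5e-05). The stress response went the other way: 9 of 18 differences from THP1 were negative and none positive (7 to 10 negative without 1 library), and 1 was positive and 1 negative against MV411. ASNS in THP1 was at 18.6, 16.5, 15.5 and 15.2 CPM under ATRA and 12.5, 14.8, 12.7 and 18.4 under Combo (MOLM13 minus THP1 -1.75 ± 0.44, adjusted p = 0.017). In MV411 ATRA day 4 replicate 1 stood apart for this gene, at 213 CPM beside 41.2 CPM in replicate 2.

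**Figure D5:**
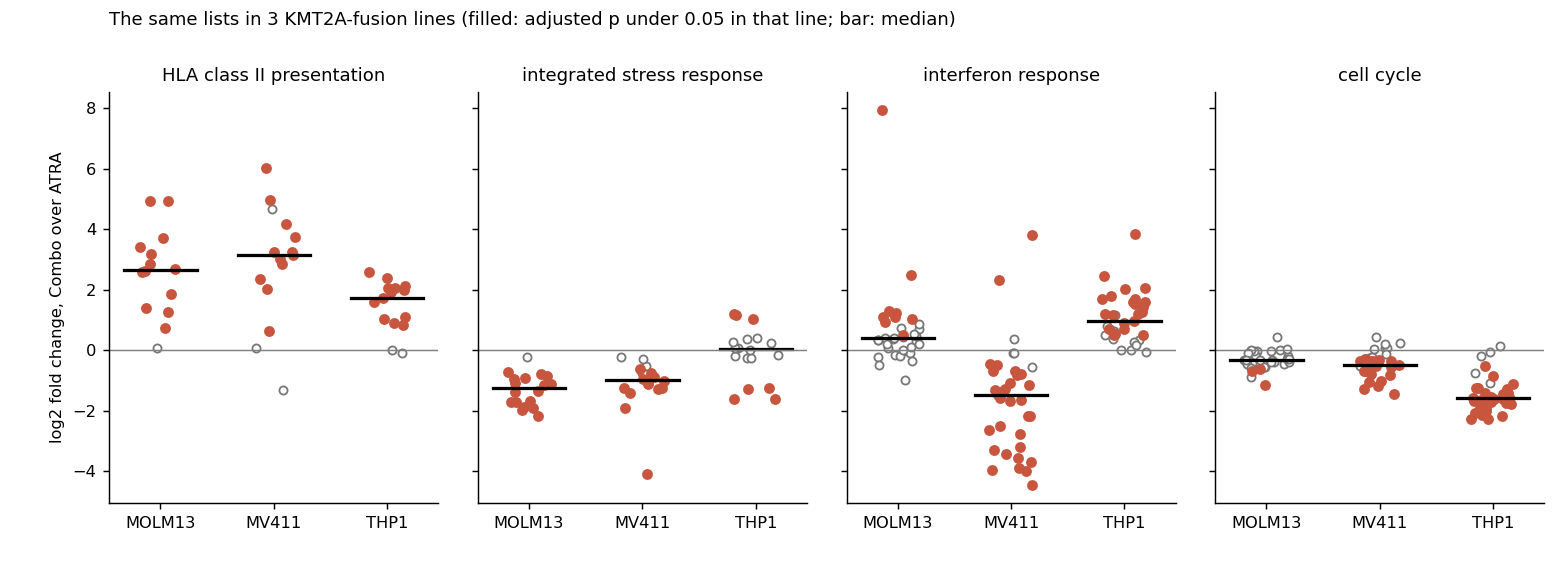
Log2 fold change of Combo over ATRA (y axis) in MOLM13, MV411 and THP1 for the tested genes of 4 lists; points are genes, filled where called in that line, and bars are medians. Class II genes are above 0 in MOLM13 and mostly above 0 in MV411 and THP1, interferon genes are mostly below 0 in MV411, the cell cycle list is lowest in THP1, and the stress response list is below 0 in MOLM13 and MV411.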

How the data were processed

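RNA of 96 libraries was sequenced after TruSeq Stranded Total RNA preparation. Raw counts per gene, not normalized, were deposited by the authors as 1 table. The submitters' processing notes name Trimmomatic 0.36, STAR 2.4.2a and HTSeq 0.6.0 with the build GRCh38. Neither the gene annotation used in counting nor its strand option is given in the sources used here. Of 60552 rows, 3558 had no symbol in GENCODE v29 (0.0321% to 0.0573% of the counts in the 8 libraries). They stayed in the counts that were fitted and were open to testing under the same filter.

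Counts were fitted with edgeR 4.0.16 (R 4.3.3; TMM, filterByExpr, glmQLFit and glmQLFTest), with treatment and day over the 8 libraries as the main design, treatment by day for single days, all 16 MOLM13 libraries for 552A, DMSO and ATRA contrasts, and 24 libraries for contrasts between lines. P-values were adjusted by Benjamini-Hochberg over all genes tested and called under 0.05. The SE is the log2 fold change divided by the square root of the F statistic. CPM values of MOLM13 are TMM-scaled over its 16 libraries. Intervals of count ratios are exact binomial (95%) and cover counting error only. The scripts were tested on simulated data with known changes.

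Alternatives were DESeq2 1.42.0, RLE size factors, no filter on low counts, a replicate block, an offset for GC content and length (spline, 5 df), all 16 libraries, and leaving out each library. Leaving out libraries of MV411 and THP1 was added after seeing the data. Named genes were the 12 largest protein-coding rises and falls among called genes that averaged log2 CPM 1 or more and had no overlap on either day, up to 4 genes with the smallest p in each of 28 lists (539 entries, 532 genes), the 4 smallest p of each contrast of effects, and 16 genes fixed by name. Members of those lists beyond the first 4 that are named, such as CIITA, CD74, MS4A7, PSAP, RARG, ATF4, ASNS, PHGDH and MTHFD2, and the marker check, were chosen after their values were seen. The comparison, its lists and rules were chosen with earlier results of these data known.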

Additional observations from a re-analysis of the deposited data

Results flagged for a closer look

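Each gene below has an inhibitor effect that differed between 2 settings in a direct test of the difference, and the differences are on the log2 scale with SE and edgeR's adjusted p. With ATRA minus without ATRA in MOLM13, the effect differed for RAB37 by 3.48 ± 0.16, adjusted p = 3.1e-07 and for the overlapping CD300LF by 3.43 ± 0.18, adjusted p = 8.6e-07. PALLD differed by 2.11 ± 0.20, adjusted p = 0.00048 and IL31RA by -2.21 ± 0.20, adjusted p = 0.00034.

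MOLM13 minus MV411 was 6.73 ± 0.45, adjusted p = 1.3e-07 for LGMN, which rose in MOLM13 (4.51) and fell in MV411 (-2.26). MS4A4A, a macrophage membrane protein, rose in MOLM13, from 4.53, 4.92, 4.16 and 4.05 CPM under ATRA to 33.7, 40.5, 39.8 and 41 CPM under Combo. Its difference from MV411 was 2.84 ± 0.19, adjusted p = 1.3e-07, and from THP1 3.32 ± 0.19, adjusted p = 2.3e-08. PIP5K1A, a phosphoinositide kinase, was at 23.9, 27.4, 12.2 and 14.5 CPM under ATRA and 232, 243, 199.9 and 244 CPM under Combo in MV411, and the difference was -2.88 ± 0.17, adjusted p = 4.9e-08. LHFPL2 had a difference of -2.86 ± 0.18, adjusted p = 6.6e-08, with no call in MOLM13 (-0.05) and a rise in MV411 (2.79).

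Against THP1, RNF144A, a ubiquitin ligase, differed by 3.09 ± 0.18, adjusted p = 2.3e-08: it fell in THP1 (-2.77) and was not called in MOLM13 (0.34). CDCA7, a MYC target, differed by 2.72 ± 0.21, adjusted p = 9.6e-07, with a rise in MOLM13 (0.84) and a fall in THP1 (-1.91). CABLES1, a regulator of cyclin-dependent kinases, rose in both lines and more in THP1 (0.74 and 2.97, difference -2.25 ± 0.17, adjusted p = 9.1e-07).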

How the results depend on the processing

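The number of genes called for Combo against ATRA was 3426 with the GC and length correction, 3720 with the replicate block and that correction, and 836 to 1989 without 1 library. DESeq2, RLE size factors, no filter, the block alone and all 16 libraries gave 1899, 1581, 2124, 1509 and 1559. On day 2 it was 761 with no filter, 944 with the GC correction and 158 to 353 without 1 library, and on day 4 it was 1541, 2455 and 247 to 976. For day 4 minus day 2 it was 15 in DESeq2, 45 with no filter, 17 with the GC correction and 0 to 0 without 1 library. For 552A against DMSO it was 1300 with no filter, 1613 with the GC correction and 461 to 927 without 1 library, and for ATRA against DMSO 3028 with the GC correction and 1060 to 1876. The test of the effect with against without ATRA called 92 in DESeq2, 142 with no filter, 114 with the GC correction, 23 with the block and 5 to 22 without 1 library. MOLM13 minus MV411 gave 2420, 2387 and 722 to 2760 for no filter, GC correction and 1 library left out, and MOLM13 minus THP1 2625, 3401 and 1188 to 1942. The causes were not tested. Replicate numbers did not pair the libraries in the same way in each group. Over 6 pairs of groups, differences between replicates 1 and 2 were correlated (11031 genes). The 3 pairs without ATRA day 4 gave 0.623, 0.571 and 0.731, and the 3 pairs with it -0.487, -0.736 and -0.537. Replicates thus differed along a shared direction, reversed in ATRA day 4. The main design did not model it, and its source was not tested. Uncalled genes changed sign: RARA ranged from -0.0546 (without ATRA day 4 replicate 1) to 0.376 without 1 library, SPI1 from -0.378 to 0.128 (0.0049, 0.016 and 0.128 without ATRA day 2 replicate 1, ATRA day 4 replicate 2 and Combo day 2 replicate 2), and HLA-DOB from -0.112 to 0.184 (-0.112 and -0.0174 without ATRA and Combo day 4 replicate 2). CEBPA passed with no filter (adjusted p = 0.0037) and MEIS1 with the GC correction (0.039).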

Other observations

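Outside the groups described above, CYBB, the catalytic subunit of the phagocyte NADPH oxidase, was the single called gene of 6 tested oxidase subunits: 32.6, 36.6, 78.8 and 75.7 CPM under ATRA and 76.7, 108, 109.8 and 133 CPM under Combo (log2 fold change 1.04 ± 0.17 (SE), adjusted p = 0.0038). Its levels were higher on day 4 in both treatments, and the day 2 Combo libraries overlapped the day 4 ATRA libraries. In the stem and progenitor list 2 of 16 tested genes were called, both higher, beside 5.72% of all genes tested called higher. KIT, the receptor for stem cell factor, was at 1.29, 1.26, 6.04 and 5.97 CPM under ATRA and 1.65, 2.79, 9.12 and 11.7 CPM under Combo (log2 fold change 0.81 ± 0.21 (SE), adjusted p = 0.036), and SOX4, a transcription factor of progenitors, at 68.2, 89.9, 113 and 126 CPM under ATRA and 109, 155, 157 and 177 CPM under Combo (log2 fold change 0.62 ± 0.15 (SE), adjusted p = 0.024). The call of KIT was lost with all 16 libraries (adjusted p = 0.12) and without any 1 library other than Combo day 2 replicate 1 (0.054 to 0.18), and that of SOX4 without ATRA day 2 replicate 1, ATRA day 4 replicate 1 or Combo day 4 replicate 2 (0.059 to 0.1). KCNE1, a potassium channel subunit, fell on both days: 6.28, 5.2, 3.07 and 2.67 CPM under ATRA and 0.903, 0.796, 0.17 and 0.397 CPM under Combo (log2 fold change -2.96 ± 0.27 (SE), adjusted p = 9e-05). VIT, the matrix protein vitrin, was at 11.4, 13.2, 17.9 and 20.4 CPM under ATRA and 2.39, 4.18, 1.7 and 1.65 CPM under Combo, with ATRA higher on day 4 and Combo lower on day 4 (log2 fold change -2.64 ± 0.32 (SE), adjusted p = 0.00056).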
